A study of Mus musculus with 12 samples.

Results

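The nuclear genes that encode respiratory complexes II to V, with cytochrome c and the complex II assembly factors, were described in mouse hearts that underwent pressure overload on a diet with or without the branched-chain amino acids leucine, valine and isoleucine (BCAA). Members were taken by gene symbol: Sdha to Sdhd and the Sdhaf genes, the Uqcr genes and Cyc1, Cycs, the Cox4 to Cox8 genes and the Atp5 genes, without pseudogene symbols. The rule found 50 genes of 16246 listed in at least 1 of the 4 deposited tables, and all 50 stood in each table: 4 subunits and 4 assembly factors of complex II, 9 genes of complex III, cytochrome c, 16 genes of complex IV and 16 of complex V. PolyA RNA was sequenced from the hearts of male C57Bl/6J mice aged 12 weeks, in 4 groups of 3 libraries. BCAA-free TAC hearts (BFT) came from mice on a diet lacking all BCAA that had transverse aortic constriction, a narrowing of the aorta that loads the left ventricle with pressure. BCAA-free sham hearts (BFS) came from mice on the same diet with a sham operation. Control-diet TAC (BCT) and control-diet sham (BCS) hearts came from mice on a matched diet with BCAA at standard chow levels. All mice started their diet 4 days before surgery and were sampled 2 weeks after it.

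Complex II (succinate dehydrogenase) feeds electrons from the citric acid cycle to ubiquinone, complex III passes them on to cytochrome c, complex IV (cytochrome c oxidase) hands them to oxygen, and complex V (ATP synthase) uses the resulting proton gradient to make ATP. Complexes III, IV and V each join nuclear-encoded subunits with a core made from mitochondrial DNA, whereas complex II is wholly nuclear-encoded. The heart is rich in mitochondria, and several complex IV subunits exist as a heart and skeletal muscle form beside a form found in most tissues. NRF1, the ETS-family factor GABPA, the estrogen-related receptors (ERR) and YY1 are known regulators of many of these genes.

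Promoter sequence was available for 38 of the 50 genes (RefSeq, GRCm38.p6), as 250 bases before to 50 after each gene start. It was searched on both strands for the NRF1 core (GCGCA and GCGC with any 1 base between them), the ETS core CCGGAAG, the ERR core AAGGTCA and the YY1 core AANATGGC. At least 1 of the 4 motifs was present in 25 of the 38 genes (65.8%). Counted by promoter it was 25 of their 41 (61.0%), against 21.5% of 32851 promoters in the same table and 24.8% of 21263 protein-coding ones. The ETS core stood in 15 of the 38 genes and 36.6% of their promoters, against 8.86% of all promoters and 11.56% of protein-coding ones. The NRF1 core stood in 12 genes and 29.3% of their promoters, against 4.6% and 6.38%. The ERR and YY1 cores stood in 5 genes each and 12.2% of their promoters. That compares with 4.72% and 6.05% of all promoters and 4.08% and 6.37% of protein-coding ones. No matches of different motifs overlapped in these promoters. A match is a description of the sequence and not a site or a cause.

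Shown here, 5′ to 3′ on the strand of the gene with motif matches in capitals, are 5 promoters chosen from genes that the results turn on. Cox6a1 (chr5:115348909-115349208, minus strand) had 2 NRF1 matches and 1 ETS match. Atp5k (chr5:108434350-108434649, minus strand) and Sdhd (chr9:50603800-50604099, minus strand) each had an NRF1, an ETS and an ERR match. None of the 4 motifs was found in the muscle-form genes Cox7a1 (chr7:30183921-30184220, plus strand) and Cox8b (chr7:140900397-140900696, minus strand). Lack of a motif was not particular to muscle forms, since Cox7a2, Cox5a, Cox5b and Cycs, among others, also had none. The muscle form Cox6a2 had no promoter available.
Cox6a1: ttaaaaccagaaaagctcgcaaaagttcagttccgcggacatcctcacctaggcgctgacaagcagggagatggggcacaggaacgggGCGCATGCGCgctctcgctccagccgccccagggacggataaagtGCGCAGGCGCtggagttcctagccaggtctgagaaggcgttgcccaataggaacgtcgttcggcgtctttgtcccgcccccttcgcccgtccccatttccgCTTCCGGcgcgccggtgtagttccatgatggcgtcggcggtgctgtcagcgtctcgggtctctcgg
Atp5k: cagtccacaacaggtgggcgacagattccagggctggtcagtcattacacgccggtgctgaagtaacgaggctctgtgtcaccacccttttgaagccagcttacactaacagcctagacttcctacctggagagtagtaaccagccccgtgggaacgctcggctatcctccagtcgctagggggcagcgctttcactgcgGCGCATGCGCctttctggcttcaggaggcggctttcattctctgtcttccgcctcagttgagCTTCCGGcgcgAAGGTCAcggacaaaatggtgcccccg
Sdhd: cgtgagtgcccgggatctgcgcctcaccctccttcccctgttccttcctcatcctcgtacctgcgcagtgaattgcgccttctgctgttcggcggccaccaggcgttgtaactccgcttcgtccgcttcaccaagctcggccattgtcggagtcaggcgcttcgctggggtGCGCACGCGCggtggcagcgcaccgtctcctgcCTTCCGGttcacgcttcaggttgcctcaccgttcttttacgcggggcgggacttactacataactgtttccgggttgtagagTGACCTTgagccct
Cox7a1: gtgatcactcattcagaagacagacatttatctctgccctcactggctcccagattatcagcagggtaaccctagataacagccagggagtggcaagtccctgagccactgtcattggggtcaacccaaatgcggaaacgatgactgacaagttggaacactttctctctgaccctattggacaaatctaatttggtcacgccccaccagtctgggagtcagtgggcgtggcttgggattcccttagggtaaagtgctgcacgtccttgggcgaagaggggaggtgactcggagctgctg
Cox8b: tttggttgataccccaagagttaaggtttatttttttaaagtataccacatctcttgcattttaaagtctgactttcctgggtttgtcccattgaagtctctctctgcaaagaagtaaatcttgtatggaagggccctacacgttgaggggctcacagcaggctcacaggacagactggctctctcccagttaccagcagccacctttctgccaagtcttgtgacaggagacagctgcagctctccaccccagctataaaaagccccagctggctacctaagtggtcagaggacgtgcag

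The genes differed widely in level. Levels scaled by the length of the longest annotated transcript and by library depth (RPKM, mean ± SD over the 12 libraries) ran from 2926 ± 314 for Atp5b, the catalytic beta subunit of ATP synthase, to 1.82 ± 0.21 for Sdhaf3, an assembly factor of complex II. Cox4i1, the widely used form of complex IV subunit 4, had 2170 ± 367 RPKM, and Atp5a1, the alpha subunit of ATP synthase, 1750 ± 201 RPKM. Among paired forms, the muscle form was the more abundant: Cox6a2 had 1481 ± 278 RPKM against 148 ± 26.8 for Cox6a1, Cox7a1 had 828 ± 285 against 313 ± 67.8 for Cox7a2, and Cox8b had 870 ± 250 against 172 ± 31.1 for Cox8a. Cox4i2, the form of subunit 4 best known from lung, had 8.23 ± 1.39 RPKM, and Cox6b2, a form of subunit 6b best known from testis, had 3.10 ± 1.45 RPKM. The per-length levels of Atp5g1 and Uqcrq depend on which annotated transcript is taken, since the longest ones used, of 4715 and 1521 bases, stand beside much shorter ones.

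Together the 50 genes took 3.67 ± 0.17% of reads in BCAA-free TAC hearts, 3.41 ± 0.11% in BCAA-free sham hearts, 2.82 ± 0.26% in control-diet TAC hearts and 3.77 ± 0.56% in control-diet sham hearts (SD, n = 3 each; reads of the 15089 genes in all 4 tables). Control-diet TAC libraries lay lowest, at 3.04, 2.53 and 2.89%, with no overlap with any other group. Control-diet sham libraries had 3.54, 3.36 and 4.41%, so that the third stood apart from the other two. Complex V alone took 1.93 ± 0.08% in BCAA-free TAC, 1.83 ± 0.06% in BCAA-free sham, 1.503 ± 0.13% in control-diet TAC and 1.97 ± 0.25% in control-diet sham hearts.

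**Figure D1:**
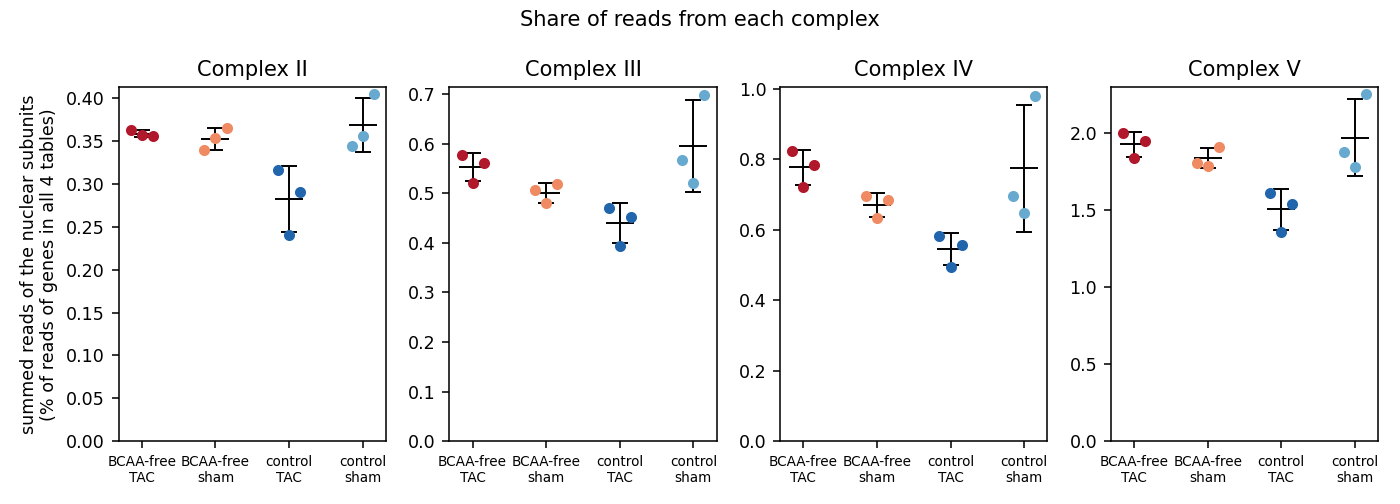
Share of reads (percent, vertical axes from 0) of the nuclear genes of complexes II, III, IV and V in each library, by group; points are libraries, the wide bar is the mean and the error bars are ±1 SD. In complex IV the 3 control-diet TAC libraries lie at 0.583, 0.494 and 0.556%, below all others, and 1 control-diet sham library lies at 0.980%.

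Libraries held 13848953 to 52059546 reads over listed genes, and all 10 cardiomyocyte marker genes were found in every group. Replicates differed by far more than counting error in every pair, so no library was counted as a repeat of another; the labels do not say whether each library is 1 heart, and p-values measure the spread between these libraries only. Control-diet sham library 3 was high and control-diet TAC library 2 low for these genes: the median gene deviated from its 12-library mean by 0.47 and -0.56 on the log2 scale. Library-wide deviations followed transcript length and GC content in part. With GC content their Spearman correlation over all genes was 0.21, 0.41 and 0.41 in the BCAA-free TAC libraries, above all 9 others, which lay between -0.22 and 0.06. Their Spearman correlation with length was -0.32, -0.12 and -0.37 in the BCAA-free TAC libraries, 0.05, 0.13 and 0.05 in the BCAA-free sham libraries, 0.25, 0.18 and 0.26 in the control-diet TAC libraries, and 0.11, 0.21 and -0.44 in the control-diet sham libraries. The 50 genes have short transcripts, with a median of 823.5 bases against 3003 over all genes, so results are also given with each library's trends over length and GC content removed.

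**Figure D2:**
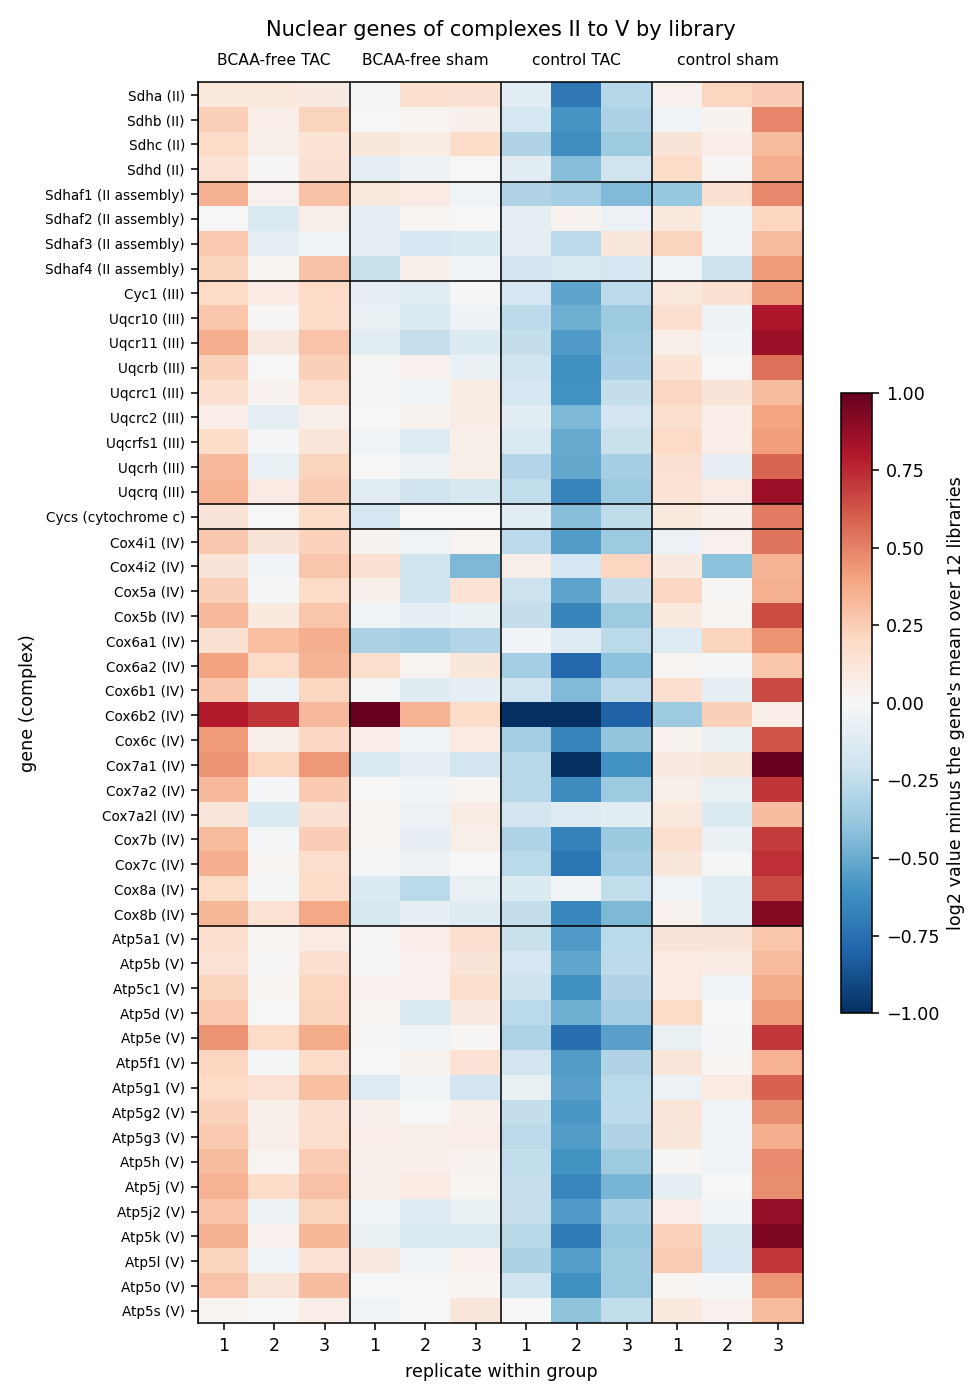
Log2 value of each of the 50 genes minus its mean over the 12 libraries (colour scale from -1 to 1; values outside it take the end colour), by library; columns are the replicates of each group and horizontal lines part the complexes. Control-diet TAC columns are mostly blue, BCAA-free TAC columns mostly red, and control-diet sham library 3 is red throughout most genes.

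The first comparison set BCAA-free TAC hearts against control-diet TAC hearts, and asked how the diet altered these genes under pressure overload. In this comparison, 44 of the 50 genes were higher in BCAA-free TAC hearts and none was lower (limma, adjusted p under 0.05 over all genes), where 34.2% of all genes tested passed, 16.5% upward and 17.7% downward. The median change of the 50 was 0.53 on the log2 scale, a 1.44-fold difference, and all 50 were positive, whereas the median over all genes was 0.000258. The authors' deposited table called the same 44 genes, all upward, but the share of all genes it called was not counted. Values below are normalized read counts of the table that holds both groups, in replicate order.

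All 4 complex II subunits rose, by 0.35 to 0.56. Sdhc, a membrane anchor of the complex, had 16309, 14919 and 15573 in BCAA-free TAC hearts, against 11546, 9230.2 and 11107 in control-diet TAC hearts. Each BCAA-free library lay above each control-diet library, with a log2 change of 0.56 ± 0.10 (SE) and adjusted p = 0.00473. Sdhd, the other anchor subunit, had the smallest rise, with 14855, 13519 and 14859 against 12427, 9923 and 11690.1 (0.35 ± 0.10, adjusted p = 0.0285). Of the complex II assembly factors, Sdhaf1, which protects the iron-sulfur subunit, rose by 0.59 ± 0.13 (adjusted p = 0.00834), and Sdhaf4, which assists the flavoprotein subunit, by 0.35 ± 0.09 (adjusted p = 0.0156). Sdhaf2, which attaches the flavin cofactor, overlapped fully: 1588, 1445 and 1648 in BCAA-free TAC hearts, against 1494, 1627 and 1530.4 in control-diet TAC hearts (0.01 ± 0.08, adjusted p = 0.951).

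In complex III, 8 of 9 genes rose, with a median of 0.53. Uqcrq, a small subunit near the ubiquinone site, had 19909, 16617 and 18532 in BCAA-free TAC hearts, against 13143, 9772 and 12157 in control-diet TAC hearts (0.66 ± 0.12, adjusted p = 0.00518). Uqcr11, another small accessory subunit, followed with 13290.2, 10997 and 12492 against 8736, 6933 and 8091 (0.63 ± 0.11, adjusted p = 0.00403). Both groups were apart for each gene. The core protein gene Uqcrc2 did not pass, at 0.26 ± 0.11 (adjusted p = 0.1), although its groups did not overlap either. Cycs, the mobile electron carrier between complexes III and IV, rose by 0.37 ± 0.10 (adjusted p = 0.0242).

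Complex IV held the largest rises, and 14 of its 16 genes passed, with a median of 0.62. Cox6b2 had 103, 98.2 and 74.0 in BCAA-free TAC hearts, against 21.5, 26.2 and 33.3 in control-diet TAC hearts, a 3.33-fold difference (1.74 ± 0.24, adjusted p = 0.00172). These values rest on few reads, 103, 115 and 75 in BCAA-free TAC libraries and 16, 20 and 50 in control-diet TAC libraries. Muscle forms came next. Cox7a1 had 19041, 16161 and 18734 in BCAA-free TAC hearts, against 11438, 6718 and 9161 in control-diet TAC hearts, a 2.02-fold difference (1.01 ± 0.18, adjusted p = 0.00490). Cox6a2 had 47739, 41277 and 45427 against 28296, 20764 and 27119 (0.83 ± 0.13, adjusted p = 0.00264), and Cox8b had 13944, 12266 and 14410.3 against 9379, 6994 and 8076 (0.74 ± 0.12, adjusted p = 0.00291). In each of the 3, control-diet TAC library 2 was the lowest of all.

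Among the other complex IV genes was Cox6c, a small subunit. It had 24467, 19089 and 20984 in BCAA-free TAC hearts, against 14322, 11500.1 and 13944 in control-diet TAC hearts (0.70 ± 0.12, adjusted p = 0.00399). The widely expressed forms passed as well. Cox6a1 had 3369, 3757 and 3898 against 2969, 2758 and 2514 (0.42 ± 0.09, adjusted p = 0.00872), Cox7a2 had 9224, 7289 and 8811 against 6083, 4740.2 and 5725 (0.61 ± 0.12, adjusted p = 0.00626), and Cox8a had 3916, 3388 and 3862 against 3088, 3324 and 2872 (0.27 ± 0.09, adjusted p = 0.0455). None of the 3 overlapped. Cox4i1 had 72168, 65517 and 69788 against 49791, 40396 and 46412 (0.61 ± 0.11, adjusted p = 0.00410), whereas its paired form Cox4i2 had 237, 213 and 262 against 225, 191 and 251 and did not pass (0.10 ± 0.14, adjusted p = 0.628). Cox7a2l, a relative of the Cox7a genes, did not pass either (0.19 ± 0.09, adjusted p = 0.143).

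In complex V, 15 of 16 genes rose, with a median of 0.53. Atp5e, the epsilon subunit of the central stalk, had 12877, 10791 and 12131 in BCAA-free TAC hearts, against 7615, 5571 and 6482 in control-diet TAC hearts (0.87 ± 0.12, adjusted p = 0.00186). Atp5j, the coupling factor 6 of the outer stalk, had 22872, 20503 and 21958 against 15275, 11372 and 12998 (0.73 ± 0.12, adjusted p = 0.00283). The groups did not overlap for either gene. The most abundant pair, Atp5a1 and Atp5b, rose by 0.44 ± 0.12 (adjusted p = 0.0221) and 0.42 ± 0.12 (adjusted p = 0.0261). Atp5s, a coupling factor B homologue rather than a core subunit, did not pass (0.25 ± 0.11, adjusted p = 0.109).

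With any 1 of the 6 libraries left out, 30 to 44 of the genes stayed past the threshold, and 30 of the 44 did so in every such fit. Of all genes, 9.81 to 16.2% were called higher in these fits. With length and GC trends removed, 36 passed and the median was 0.40, where 16.9% of all genes were called higher and 11.9% lower. Among those that no longer passed were Cox6a1 (0.10, adjusted p = 0.389), Cox8a (-0.05, adjusted p = 0.669) and Cyc1 (0.34, adjusted p = 0.0550). Markers of other cell types moved in the same comparison. Of 8 fibroblast genes 7 were lower in BCAA-free TAC hearts, with summed values of 26101 to 34240 against 62084 to 163760 in control-diet TAC hearts, and 7 of 8 macrophage genes were lower, with sums of 5010 to 6122 against 7849 to 9275. Of 10 cardiomyocyte genes 7 were higher and 1 lower, with sums of 3616400 to 3779200 against 2429200 to 3012800; no gene of these 3 lists was at 0 in any library. Of 7 endothelial genes 4 were lower, with sums of 28981 to 32931 against 36710.0 to 37496, and of 5 atrial genes 2 were higher, with a median of 1.17 and sums of 11525 to 23644 against 8412 to 11625. Of 5 genes known to respond to pressure overload (Nppa, Nppb, Acta1, Myh7 and Ankrd1) 3 were lower, with a median of -0.92. The part of this shift in the result was not tested, and in bulk tissue fewer cells of a type and less RNA per cell cannot be told apart.

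**Figure D3:**
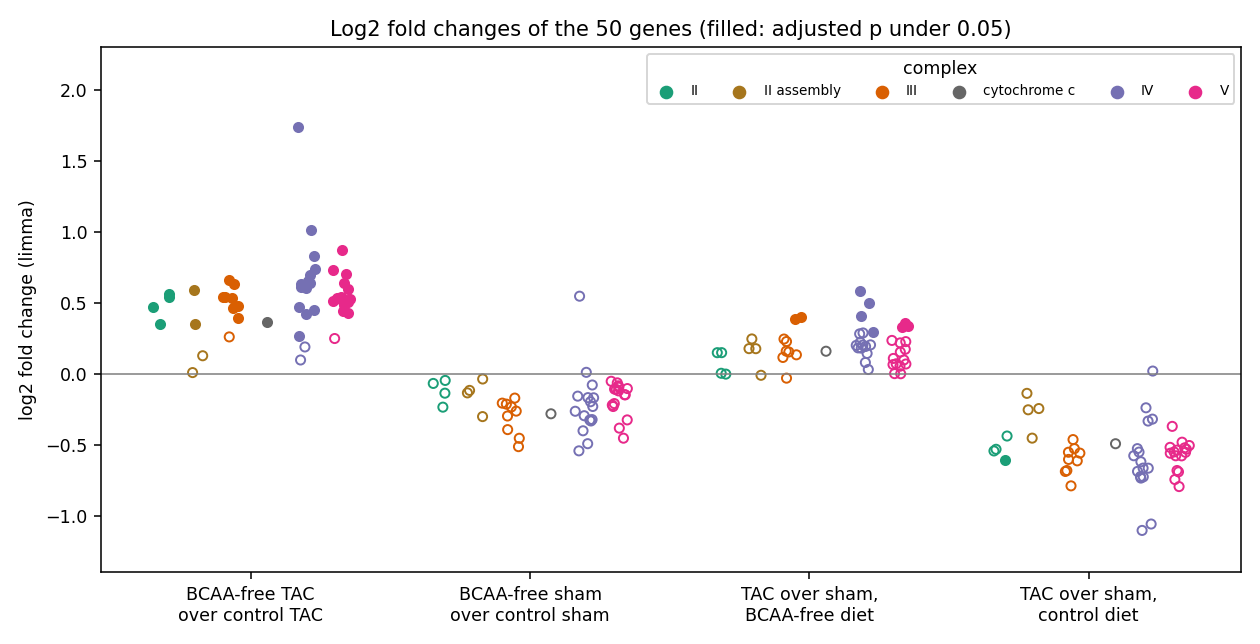
Log2 fold change (limma, vertical axis) of each of the 50 genes in the 4 comparisons, coloured by complex; filled points have an adjusted p under 0.05 over all genes. Points lie above 0 throughout for BCAA-free TAC over control-diet TAC, where 44 are filled, and below 0 for 49 of 50 genes for TAC over sham on the control diet, where 1 is filled.

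The second comparison set control-diet TAC hearts against control-diet sham hearts, the effect of pressure overload with BCAA in the diet. Changes were negative for 49 of the 50 genes, with a median of -0.55 against -0.00467 over all genes, but 1 gene passed, where 4.04% of all genes tested did, 2.95% upward and 1.09% downward. The spread between replicates was large: the SE had a median of 0.17 over the 50 genes, against 0.12 in the comparison of diets after TAC. By complex the medians were -0.54 for complex II, -0.25 for its assembly factors, -0.60 for complex III, -0.64 for complex IV and -0.55 for complex V.

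The gene that passed was Sdhc, with 9435, 7594 and 9119 in control-diet TAC hearts, against 12729, 12103 and 14966 in control-diet sham hearts (-0.61 ± 0.13, adjusted p = 0.0462). Its groups did not overlap. Cox7a1 had a larger difference that did not pass: 9346, 5527 and 7522 in control-diet TAC hearts, against 12128, 12206 and 23784 in control-diet sham hearts (-1.06 ± 0.28, adjusted p = 0.0620). Sham library 3 lay far above the other sham libraries. Cox6b2 had 17.6, 21.6 and 27.3 against 37.4, 56.7 and 52.3 (-1.10 ± 0.28, adjusted p = 0.0560), the largest negative change of the 50. Cox6a2 had 23121, 17084 and 22266 against 30008, 28877 and 36909 (-0.62 ± 0.16, adjusted p = 0.0575). Cox8b had 7664, 5755 and 6631 against 9255, 8271 and 17654 (-0.74 ± 0.26, adjusted p = 0.113).

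The other paired forms did not pass either. Cox4i1 had 40686, 33236 and 38107 in control-diet TAC hearts, against 46999, 49909 and 73152 in control-diet sham hearts (-0.58 ± 0.18, adjusted p = 0.0866), and Cox7a2 had 4970.5, 3900.1 and 4700.2 against 6283, 5674 and 10206.5 (-0.67 ± 0.21, adjusted p = 0.0857). Cox6a1 had 2426, 2269.6 and 2064 against 2274, 2869 and 3491 (-0.33 ± 0.15, adjusted p = 0.195), and Cox8a had 2523, 2735 and 2358 against 2721, 2564 and 4542 (-0.32 ± 0.20, adjusted p = 0.326). Cox4i1 and Cox7a2 did not overlap between groups, whereas Cox6a1 and Cox8a did. Cox4i2 was the single gene with a positive value, 184, 157 and 206 against 189, 131 and 231 (0.02 ± 0.22, adjusted p = 0.965).

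The smallest negative changes by complex were -0.44 for Sdhd in complex II, -0.14 for Sdhaf2 among its assembly factors, -0.46 for Uqcrc2 in complex III and -0.37 for Atp5s in complex V, and the largest among the assembly factors was -0.45 for Sdhaf1. The largest negative changes in complexes III and V were those of Uqcrq, 10739.5, 8040.4 and 9981 in control-diet TAC hearts against 14008, 13392 and 23794 in control-diet sham hearts (-0.79 ± 0.22, adjusted p = 0.0662), and Atp5k, the e subunit of ATP synthase, 4910.0, 3650.0 and 4605 against 6995, 5274 and 11708 (-0.80 ± 0.26, adjusted p = 0.0953). Both again had their highest value in sham library 3. The count of genes called differed between tests. The authors' deposited table called 40 of the 50 lower, DESeq2 run on the recovered reads 40 and edgeR 0, and limma with all 12 libraries in 1 fit 42. The share of all genes called lower moved with them: 5.95% in DESeq2, 0.858% in edgeR and 9.11% in the 12-library fit. For the authors' own tables that share was not counted. Sdhc itself did not pass in edgeR (adjusted p = 0.0504) or in 5 of the 6 fits that left out 1 library. Its adjusted p in those 6 limma fits ran from 0.0461 to 0.116. Calls over all genes, 622 with all libraries, were 98, 2 and 2 without control-diet sham library 3, 2 or 1. They were 0, 195 and 1091 without control-diet TAC library 3, 2 or 1. With length and GC trends removed 20 of the 50 genes passed, all lower, where 5.75% of all genes were called lower. Of the 8 fibroblast genes 5 were higher in control-diet TAC hearts, with sums of 50731 to 134730 against 23777 to 27196 in control-diet sham hearts, and 1 of the 10 cardiomyocyte genes was lower, with sums of 1998700 to 2461900 against 2755100 to 2891800. Their part in the result was not tested.

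The third comparison set BCAA-free TAC hearts against BCAA-free sham hearts, the effect of pressure overload without BCAA in the diet. Here 9 genes rose and none fell, where 6.23% of all genes tested passed, 3.34% upward and 2.89% downward. The median change was 0.18, and 46 of the 50 genes were positive. Those that rose were Cox6a1, Cox7a1, Cox8b and Cox5b of complex IV, Uqcrq and Uqcr11 of complex III, and Atp5g1, Atp5e and Atp5k of complex V. No complex II gene passed. The authors' deposited table called 14 of the 50, all upward and with these 9 among them, but the share of all genes it called was not counted.

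Cox6a1 had 3251, 3619 and 3760.3 in BCAA-free TAC hearts, against 2364, 2330.0 and 2396 in BCAA-free sham hearts (0.58 ± 0.07, adjusted p = 0.0039). The sham libraries were nearly equal and all TAC libraries lay above them. Cox7a1 had 18375, 15566 and 18071 against 12243, 12676 and 11843 (0.50 ± 0.08, adjusted p = 0.0098), and Cox8b had 13456, 11814 and 13900.5 against 9579.5, 10088 and 9795 (0.41 ± 0.08, adjusted p = 0.0169). Neither overlapped. Uqcrq had 19213, 16005 and 17876 against 13982, 13155 and 13472 (0.38 ± 0.08, adjusted p = 0.0208), and Uqcr11 had 12826, 10592 and 12050.3 against 9269, 8471 and 9068 (0.40 ± 0.08, adjusted p = 0.0208). Atp5g1, 1 of 3 genes for the membrane ring subunit c, had 48299.9, 46690.4 and 51490.2 against 38692, 40844 and 36825 (0.33 ± 0.07, adjusted p = 0.0246). The groups did not overlap for any of these, and BCAA-free TAC library 2 was the lowest of its group for each of the 6 but Cox6a1.

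At the other end, the complex II flavoprotein gene Sdha had 71182, 71108 and 70120.3 in BCAA-free TAC hearts, against 65529, 74037 and 73622 in BCAA-free sham hearts (-0.0031 ± 0.07, adjusted p = 0.986), and Uqcrc2 had 29044, 25881 and 28443 against 27617, 28398 and 29110.2 (-0.03 ± 0.07, adjusted p = 0.83). Their groups overlapped. The other ends of each complex were 0.15 for Sdhd, -0.01 and 0.24 for the assembly factors Sdhaf2 and Sdhaf4, 0.03 for Cox7a2l, and -0.00057 and 0.36 for Atp5s and Atp5k.

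Of the paired forms that did not pass, Cox6a2 had 46071, 39756 and 43820.1 in BCAA-free TAC hearts, against 39306.5, 35552 and 37772 in BCAA-free sham hearts (0.20 ± 0.08, adjusted p = 0.126), and Cox4i1 had 69647, 63104 and 67319 against 59195, 56048 and 58904 (0.20 ± 0.07, adjusted p = 0.0988). Cox8a had 3779, 3264 and 3725 against 3002, 2734 and 3122.5 (0.28 ± 0.08, adjusted p = 0.0604). These 3 did not overlap between groups. Cox7a2 had 8901, 7020.4 and 8499 against 7173, 6982 and 7267 (0.18 ± 0.09, adjusted p = 0.225), and Cox4i2 had 229, 206 and 252 against 233, 182 and 153 (0.29 ± 0.16, adjusted p = 0.307). Both overlapped. Leaving out BCAA-free TAC library 3 left 1 gene, leaving out BCAA-free sham library 1 or 2 left 2 each, removing length and GC trends left 3, and fitting all 12 libraries together left 0. Calls over all genes fell as well, to 48, 140, 108, 76 and 53 in that order, against 977, while the median of the 50 genes was 0.15, 0.19, 0.16, 0.11 and 0.18. Cox6a1 passed with each of the 6 libraries left out in turn (adjusted p 0.00298 to 0.0315), and had 0.33 and adjusted p = 0.0720 with the trends removed.

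The fourth comparison set BCAA-free sham hearts against control-diet sham hearts, the effect of the diet without pressure overload. None of the 50 genes passed, where 0.624% of all genes tested did, and the median change was -0.21 with 48 genes negative. Of the 50 genes edgeR called 0 and DESeq2 called 1, as lower, where 0.376% and 1.82% of all genes tested were called lower. Cox6a1 had the smallest p, with 1942, 1913 and 1969 in BCAA-free sham hearts, against 2198, 2779 and 3342 in control-diet sham hearts (-0.49 ± 0.14, adjusted p = 0.114). Its groups did not overlap, and it was the 1 gene the authors' deposited table called, as lower.

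Next were Uqcrq, 11482, 10800.1 and 11068 in BCAA-free sham hearts against 13537, 12973 and 22782 in control-diet sham hearts (-0.51 ± 0.19, adjusted p = 0.217), and Cyc1, the cytochrome c1 heme protein of complex III, 21765, 21446 and 22699.5 against 24675, 25289.8 and 31585 (-0.30 ± 0.12, adjusted p = 0.242). Control-diet sham library 3 was the highest in each. Without it the median of the 50 genes was -0.03, so most of the shift in sham hearts rested on that library. The positive exceptions were Cox6b2 (0.55 ± 0.28, adjusted p = 0.355), at 99.0, 59.8 and 53.3 against 36.2, 54.9 and 50.1, and Cox6a2 (0.01 ± 0.12, adjusted p = 0.978), at 32280.1, 29188 and 31031 against 28999, 27974 and 35340.0. Both overlapped between groups. Cox7a1 had 10054, 10407 and 9729 against 11719.9, 11824 and 22773 (-0.54 ± 0.23, adjusted p = 0.276), without overlap.

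The remaining paired forms all overlapped between BCAA-free sham and control-diet sham hearts. Cox4i1 had 48614, 46015 and 48393 against 45419, 48347.5 and 70042.4 (-0.17 ± 0.15, adjusted p = 0.621), and Cox4i2 had 192, 149.6 and 126 against 183, 127 and 221 (-0.17 ± 0.22, adjusted p = 0.747). Cox7a2 had 5891, 5732 and 5970.0 against 6071, 5496 and 9773 (-0.23 ± 0.18, adjusted p = 0.569). Cox8a had 2466, 2244 and 2565 against 2629, 2484 and 4349 (-0.33 ± 0.19, adjusted p = 0.412), and Cox8b had 7867, 8282 and 8047 against 8944, 8012 and 16904 (-0.40 ± 0.24, adjusted p = 0.453). Control-diet sham library 3 was the highest for each of these 5. By complex, changes ran from -0.24 for Sdhd to -0.05 for Sdhc, from -0.30 for Sdhaf3 to -0.04 for Sdhaf1, and from -0.45 for Atp5k to -0.05 for Atp5c1, and the least negative in complex III was -0.17 for Uqcrc2.

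The effects of TAC on the 2 diets share no libraries, and their difference was tested directly as an interaction over the 12 libraries. The TAC effect was higher on the BCAA-free diet than on the control diet for 33 of the 50 genes and lower for none, where 8.65% of all genes tested passed, 4.92% upward and 3.73% downward. The median difference was 0.75 on the log2 scale, against -0.03 over all genes, and all 50 were positive. By complex 8 of 9 genes passed in complex III, 11 of 16 in complex IV, 10 of 16 in complex V, 3 of 4 in complex II, Cycs, and none of the 4 assembly factors. In the same test 2 of 8 fibroblast genes were lower (median -1.09), 2 of 10 cardiomyocyte genes higher (median 0.44) and 1 of 7 smooth muscle and pericyte genes lower (median -0.68), and the 5 pressure-overload genes had a median of -1.19 with none past the threshold. The part of these shifts in the result was not tested.

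Cox6a1 had the smallest p: its TAC effect was 0.58 on the BCAA-free diet and -0.33 on the control diet, a difference of 0.92 ± 0.18 (adjusted p = 0.0147). Cyc1 had TAC effects of 0.23 and -0.55 in the same order (difference 0.78 ± 0.17, adjusted p = 0.0185), Uqcrq 0.38 and -0.79 (1.17 ± 0.25, adjusted p = 0.0204) and Cox6a2 0.20 and -0.62 (0.82 ± 0.18, adjusted p = 0.0208). Cyc1 had 32279, 29641 and 32029 in BCAA-free TAC hearts against 26503, 26122 and 27630.0 in BCAA-free sham hearts, and 21096, 16543 and 19918 in control-diet TAC hearts against 25534, 26107 and 32987 in control-diet sham hearts. Neither pair of groups overlapped, and they were apart in opposite directions. The largest difference was that of Cox7a1, 1.56 ± 0.34 (adjusted p = 0.0222). Sdhaf2 (0.13 ± 0.13), Cox4i2 (0.27 ± 0.29) and Cox7a2l (0.27 ± 0.17) had the smallest.

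The median lay between 0.57 and 0.84 with each library left out in turn, and was 0.51 with length and GC trends removed. The count of genes called fell to 1 without BCAA-free TAC library 3 or BCAA-free sham library 2, to 2 without BCAA-free TAC library 1 or BCAA-free sham library 1, to 10 and 11 without control-diet TAC library 2 or 3, to 14 and 20 without BCAA-free sham library 3 or BCAA-free TAC library 2, and to 17 with the trends removed. Calls over all genes, 1314 with all libraries, were 216 and 278 in the first pair of these fits, 438 and 296 in the second, 635 in each of the third, 1004 and 696 in the fourth, and 534 with the trends removed. Cox6a1 was the 1 gene that passed in all 12 of these left-out fits (adjusted p 0.0103 to 0.0480); with the trends removed it had 0.46 and adjusted p = 0.0544.

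**Figure D4:**
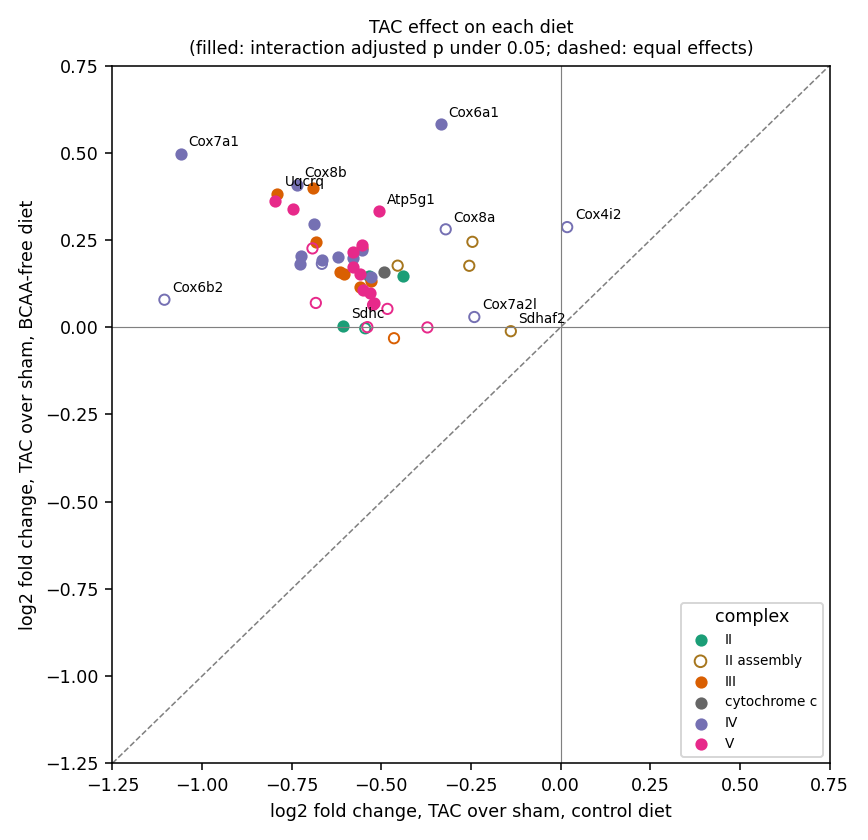
Log2 fold change of TAC over sham on the BCAA-free diet (vertical axis) against that on the control diet (horizontal axis) for the 50 genes, coloured by complex; filled points have an interaction adjusted p under 0.05 and the dashed line marks equal effects. All 50 points lie above the dashed line, and Cox7a1 (0.50 against -1.06) lies farthest from it.

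Transcript length went with the size of change among the 50 genes as well. Across them the Spearman correlation of length with the log2 change was -0.46 after TAC between diets, 0.51 with TAC under the control diet, -0.54 with TAC under the BCAA-free diet, 0.36 between diets in sham hearts and -0.59 for the interaction. The 25 genes with shorter transcripts (median 618 bases) had a median interaction of 0.80 and the 25 longer ones (median 1604 bases) 0.63, so both sets were positive. These correlations run over genes that share the same libraries and carry no p.

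In complex IV, several pairs of genes encode alternative forms of the same subunit, and 4 pairs were compared as ratios. Cox6b2 and Cox6b1, with log2 changes of 1.74 and 0.45 between diets after TAC, were not among them. The ratio of a pair within a library is free of the library's scaling. It can still carry the trends over length and GC content, and the ratios are given here without their removal. The log2 ratio of Cox6a1 to Cox6a2 was -3.82, -3.46 and -3.54 in BCAA-free TAC hearts, -4.05, -3.93 and -3.98 in BCAA-free sham hearts, -3.25, -2.91 and -3.43 in control-diet TAC hearts, and -3.72, -3.33 and -3.40 in control-diet sham hearts. It was lower on the BCAA-free diet after either operation, without overlap, by 0.46 on average (-0.46; exact two-sided permutation test within operations, p = 0.005, the smallest possible; adjusted p = 0.04 over 8 tests). The difference lay between -0.52 and -0.38 with each library left out, and no longer passed without any 1 of the 6 BCAA-free libraries or without control-diet TAC library 2 (exact permutation test, adjusted p 0.06 to 0.12). Between TAC and sham it differed by 0.33 (exact permutation p = 0.015, adjusted p = 0.06), which did not pass. Cox6a1 thus made up 7.61 ± 0.91% of the pair's counts in BCAA-free TAC, 5.93 ± 0.24% in BCAA-free sham, 9.90 ± 1.66% in control-diet TAC and 8.24 ± 1.05% in control-diet sham hearts.

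Cox7a2 to Cox7a1 behaved otherwise. Its log2 ratio was -1.05, -1.15 and -1.09 in BCAA-free TAC hearts, -0.77, -0.86 and -0.70 in BCAA-free sham hearts, -0.91, -0.50 and -0.68 in control-diet TAC hearts, and -0.95, -1.11 and -1.22 in control-diet sham hearts. With TAC the ratio moved by -0.32 on the BCAA-free diet and by 0.39 on the control diet, with no overlap in either. The difference between these changes was -0.71, and lay between -0.82 and -0.61 with each library left out. For Cox8a to Cox8b the changes were -0.13 on the BCAA-free diet and 0.42 on the control diet, and their difference was -0.54. For Cox4i2 to Cox4i1 the changes were 0.09 and 0.60, and their difference was -0.51. These differences between the diets were not tested. Within a single diet or operation, 3 libraries against 3 cannot go below an exact p of 0.1.

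**Figure D5:**
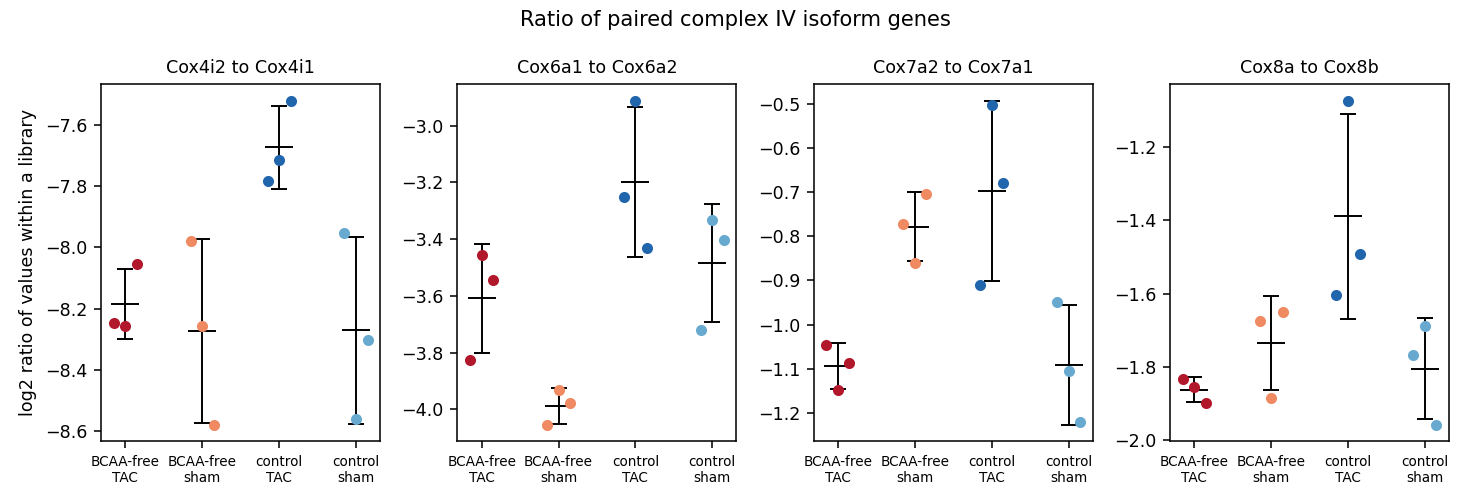
Log2 ratio within each library (vertical axes, not starting at 0) of 4 pairs of complex IV genes, by group; points are libraries, the wide bar is the mean and the error bars are ±1 SD. Cox6a1 to Cox6a2 is lower in BCAA-free than in control-diet hearts after either operation, and Cox7a2 to Cox7a1 moves in opposite directions with TAC on the 2 diets.

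Related genes were counted beside the 50. After TAC, 36 of 46 complex I genes were higher in BCAA-free than in control-diet hearts, with a median of 0.52, and 29 of 46 passed for the interaction with a median of 0.79. Of 35 assembly factors of complexes II to V outside the member rule, 8 rose and 1 fell after TAC with the BCAA-free diet, with a median of 0.23, where 16.5% of all genes rose and 17.7% fell. Cox17, a copper chaperone of complex IV, rose by 0.62 ± 0.10 (adjusted p = 0.00336) and Uqcc2, a complex III assembly factor, by 0.58 ± 0.11 (adjusted p = 0.00482), whereas Coa5, a complex IV assembly factor, fell by 0.33 on the log2 scale (SE 0.07, adjusted p = 0.0102). None of these 35 passed for TAC on the control diet or for the diet in sham hearts, and 3 rose for TAC on the BCAA-free diet.

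The 6 subunits of complexes III to V encoded by mitochondrial DNA had a median change of 0.25 after TAC between diets, -0.40 with TAC under the control diet and -0.03 with TAC under the BCAA-free diet, and none passed in any comparison. Of 7 genes for nucleotide and phosphate carriers, 4 rose after TAC with the BCAA-free diet. They included Slc25a4, the adenine nucleotide carrier of heart and muscle (0.66 ± 0.13, adjusted p = 0.00587), and Slc25a3, the phosphate carrier (0.45 ± 0.11, adjusted p = 0.0138). Of 16 genes for regulators of respiratory genes, 3 rose and 1 fell there, where 16.5% of all genes rose and 17.7% fell, so that the share that rose was near that of all genes. Esrra, which encodes an ERR, rose by 0.56 ± 0.10 (adjusted p = 0.00475), was lower with TAC on the control diet (-0.57 ± 0.12, adjusted p = 0.0433), and passed for the interaction (0.73 ± 0.14, adjusted p = 0.013). Gabpa, for the ETS factor named above, fell by 0.40 with TAC on the BCAA-free diet (SE 0.08, adjusted p = 0.0235).

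Counts of some of the 50 genes may include reads of other loci. An annotated transcript of another gene matched 17 of them at 95% identity or more over at least 100 bases, among them Cox6c, Cox7c, Uqcrb and Atp5f1. They also included Atp5g1, Uqcr11, Cox5b and Atp5k, all called for TAC on the BCAA-free diet. Sdhaf2 matched transcripts of 291 other genes, Mapk12 and Calu among them, Cycs of 11, and Atp5g1 and Atp5l of 10 each. A match may cover only part of a transcript and need not be a copy of the gene. How the authors' counting split such reads is not given in the sources used here. Another listed gene overlapped 14 of them, including Itgad beside Cox6a2, Emc8 beside Cox4i1 and Gabpa beside Atp5j, on the opposite strand in each of these cases, and whether counting used strand is not given. Cox6a1, Cox7a1, Cox7a2, Cox8a and Cox8b had neither such a match nor an overlap.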

How the data were processed

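PolyA RNA was sequenced in 12 mouse heart libraries, in 4 groups of 3. The tools named in the submitters' processing notes are DESeq2, Subread 1.5.2, STAR 2.5.2b and Trimmomatic 0.36, with the build GRCm38/mm10; their settings, and whether counting used strand, are not given in the sources used here. The authors deposited 4 tables, 1 per comparison, each holding 6 libraries' normalized read counts (a signal value, reads divided by a size factor), and, per the file headers, a log2 fold change, p-value and adjusted p-value of their own. Values are scaled within a table, so levels are not compared between tables. Whole reads were recovered from the steps in the deposited signal values, within a tolerance of 0.01 of a whole number, and used for reads, shares and count tests.

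From these values, log2(value + 1) of genes with a mean of at least 10 was tested with limma 3.58.1 (trend and robust options), adjusted over all genes by Benjamini-Hochberg, with calls at an adjusted p under 0.05. Fold changes are on the log2(value + 1) scale, which understates those of low genes. The interaction used the 12 libraries of both TAC tables. Alternatives were TMM-rescaled values, library totals, another pseudocount and filters, a replicate block, removal of spline trends over GC content and log length, each library left out in turn, edgeR 4.0.16 and DESeq2 1.42.0 on recovered reads, and, chosen after seeing the data, fits to all 12 libraries together. Of these, only the limma fit in its main setting was also run on simulated counts, which carried no length or GC trends. Lengths and positions came from GENCODE M21, to which 99.772% of gene IDs matched.

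The members and lists were chosen with earlier results of these data known. Full values are given for the 6 called members with the smallest p per comparison (3 where none passed). They are also given for the 4 smallest interaction p and members of the isoform pairs. The largest rise and fall of each complex are given in full or as log2 changes alone. Further members are named as examples, chosen after their values were seen.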

Additional observations from a re-analysis of the deposited data

Results flagged for a closer look

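The effect of TAC differed between the diets, by a direct test, for 33 of the 50 genes, each with the higher effect on the BCAA-free diet, where 8.65% of all genes tested passed, 4.92% upward. The difference in log2 change was 0.92 for Cox6a1, 0.78 for Cyc1, 1.17 for Uqcrq and 0.82 for Cox6a2, the 4 with the smallest p. The log2 ratio of Cox7a2 to Cox7a1 was lower in every BCAA-free TAC library than in every BCAA-free sham library, and higher in every control-diet TAC library than in every control-diet sham library. The change on the BCAA-free diet minus that on the control diet was -0.71, a difference that was not tested. Groups of 3 were not searched for outlying libraries.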

How the results depend on the processing

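After TAC, 30 to 44 of the genes were called higher with the BCAA-free diet under every alternative run. Of all genes, 9.18 to 20.9% were called higher in these runs. The median there was 0.38 with all 12 libraries in 1 limma fit and trends removed, and 0.43 to 0.60 with a library left out. Cox8a changed sign with length and GC trends removed, to -0.0518 without and -0.0518 with a replicate block, and to -0.0708 in the 12-library fit. For TAC on the control diet, the count called was 13 with a replicate block, 20 with trends removed and 6 with both. It was 0 in edgeR, 40 in DESeq2, 42 in limma and 42 in edgeR on 12 libraries, and 43 with trends also removed. The share of all genes called lower was 1.8, 5.75, 2.29, 0.858, 5.95, 9.11, 9.13 and 14.5% in that order. The main fit had 1.09%. With a library left out the count was 0 to 2, the share 0 to 2.41% and the median -0.65 to -0.40. For TAC on the BCAA-free diet the count was 13 with the replicate block, 3 with trends removed, 4 with both and 14 in DESeq2. It was 0 in the 3 fits to 12 libraries (0, 0 and 0). The share of all genes called higher was 4.31, 0.448, 0.819, 5.23, 0.298, 0.331 and 0.0199% in that order. The main fit had 3.34%. With a library left out the count was 1 to 12, the share 0.262 to 3.79% and the median 0.12 to 0.26. For the diet in sham hearts, 1 gene, Cox6a1, passed with trends removed, with these and the block, in DESeq2 and in the 3 fits to 12 libraries. The share of all genes called lower was 1.59, 1.49, 1.82, 1.2, 1.09 and 2.2% in that order. The main fit had 0.375%. The median ran from -0.33 to -0.03 with a library left out. For the interaction, 17 passed with trends removed, 15 in the 12-library fit with trends removed and 39 with the replicate block. The share of all genes called higher was 2.76, 2.68 and 5.98% in that order, and 4.92% in the main fit. The median was 0.51 with trends removed, 0.51 with the block added and 0.51 in the 12-library fit. With a library left out the count was 1 to 38, the share 0.836 to 6.42% and the median 0.57 to 0.84. The cause of these differences was not tested.

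The replicate numbers were not used as pairs: same-numbered libraries' deviations correlated by -0.18 to 0.08. With library totals the median of all genes shifted by 0.15 for TAC on the control diet, -0.13 after TAC between diets and -0.20 for the interaction. For the isoform ratios, Cox6a1 to Cox6a2 between TAC and sham was 0.33 with the replicate block (permutation test, adjusted p = 0.04). That p is not exact, because the mean of each replicate number was subtracted before libraries were permuted within diets. With a library left out the difference was 0.26 to 0.39 between TAC and sham, and -0.52 to -0.38 between diets. Cox4i2 to Cox4i1 ran from 0.27 to 0.42 and -0.33 to -0.18, Cox7a2 to Cox7a1 from -0.01 to 0.09 and -0.10 to 0.01, and Cox8a to Cox8b from 0.07 to 0.20 and -0.26 to -0.12, each for TAC over sham and then for BCAA-free over control diet. Depth limits Cox6b2 most, with 16 to 115 reads a library after TAC.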
